A study of Mus musculus with 20 samples.

Results

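The comparison described here set the adult against the juvenile preoptic area of female mice in 6 supernatant libraries, 3 adult and 3 young, of the 20 libraries in the series. The 6 libraries are those labelled as supernatants of the pools collected new for this series, and every gene of the count table that passed the low-count filter was tested. The preoptic area lies at the front of the hypothalamus and is home to the majority of the neurons that make gonadotropin-releasing hormone (GnRH). Each library came from a pool of preoptic punches from 3 to 4 mice, taken at day 21 (young) or at days 70 to 150 (adult, all in diestrus). The supernatant is the RNA that stays behind when GFP-tagged ribosomes are pulled down with an antibody, so it stands for the whole punch rather than for 1 cell type.

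Genotype was not the same at both ages. Young pools 1 and 2 were wild type and young pool 3 carried the floxed L10a-GFP allele only. Adult pool 1 was GnRH CRE x Floxed L10a-GFP, in which Cre driven in GnRH neurons switches on a GFP-tagged ribosomal protein, and adult pools 2 and 3 were GnRH CRE only. No young pool and every adult pool therefore carried Cre, so age and Cre cannot be told apart among these 6 libraries. The floxed allele was carried by 1 pool at each age. The series text names the GFP-positive supernatant differently in 2 places; the sample labels were followed, and the choice does not change which libraries are adult. For comparison, 4 supernatants of pools from an earlier series (earlier pools, 2 young and 2 adult, sequenced again in the same run set) were all GnRH CRE x Floxed L10a-GFP at both ages. In a bulk punch, fewer cells of a type and less RNA per cell cannot be told apart.

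Between day 21 and adulthood a mouse passes through puberty. GnRH neurons drive the pituitary hormones of reproduction, and kisspeptin neurons, some of them in the preoptic area, stimulate GnRH neurons and respond to sex steroids. Over the same weeks, as background, the oligodendrocyte lineage goes on from dividing precursors through newly formed, premyelinating cells to mature myelinating cells, neurons complete their outgrowth, and microglia and other immune cells of the brain and its coverings mature. Gene lists for these cell types and processes are used below to order the results.

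Total counts ran from 27.7 M to 50.5 M per library, and 13886 to 14165 genes reached 1 CPM (counts scaled to 1000000 per library). A floor of 3 counts lay between 0.0594 and 0.108 CPM. CPM values below were scaled by the trimmed mean of M-values (TMM) within the 6 libraries unless stated. Log2 CPM correlated at 0.965 to 0.986 between libraries across genes, which are not independent replicates. Of 20 genes listed for preoptic identity all 20 were measured, among them Lhx8 at 84.8 to 139 CPM and Six3 at 75.4 to 104 CPM, and their summed level was 459 to 577 CPM in the young and 602 to 626 CPM in the adult pools.

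Among the 6 libraries, young pool 3 stood apart. It held the lowest preoptic sum, and the transmitter transporter gene of cortical excitatory neurons, Slc17a7, stood at 118 CPM there against 1.86 and 1.90 CPM in the other young pools and 4.38 to 21.0 CPM in the adults. The contractile smooth-muscle gene Acta2 stood at 173 CPM in young pool 3, at 11.3 and 16.0 CPM in the other young pools and at 36.2 to 49.0 CPM in the adults. The 13 cortex and hippocampus genes summed to 1136 CPM in young pool 3 and to 615 to 745 CPM elsewhere. The galanin gene Gal was lowest in young pool 3, at 22.7 CPM, against 49.9 to 71.9 CPM in the other 5 libraries. The earlier pools differed in the same genes, in CPM of the library total. Slc17a7 stood at 50.6 CPM in earlier young pool 1 and 34.5 CPM in earlier adult pool 3. It stood at 2.08 CPM in earlier young pool 2 and 3.19 CPM in earlier adult pool 4. Acta2 stood at 97.5 CPM in earlier adult pool 3 and at 3.92 to 9.63 CPM in the other earlier pools. What set these pools apart was not tested. Counts of list members without young pool 3 are given beside most lists below, and are to be read against the 3.99% of all genes that were called higher and the 4.18% called lower in that fit.

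In all, 481 of 15593 genes tested by edgeR passed an adjusted p of 0.05 (3.08%), 210 higher in adults (1.35%) and 271 lower (1.74%), with a median log2 difference over all genes of 0.01. An at least 2-fold change (log2 of 1 or more) was met by 62 of the higher genes (0.398%) and 65 of the lower (0.417%). The 3 adult libraries lay above the 3 young for 2042 genes (13.1%) and below them for 1931 (12.4%). Among called genes that separation held for all 210 higher and for 270 of the 271 lower ones; the exception was Gje1. The number of calls hung on single libraries. It was 42 without adult pool 2, 61 without young pool 2, 184 without adult pool 3, 217 without young pool 1, 256 without adult pool 1 and 1292 without young pool 3.

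**Figure D1:**
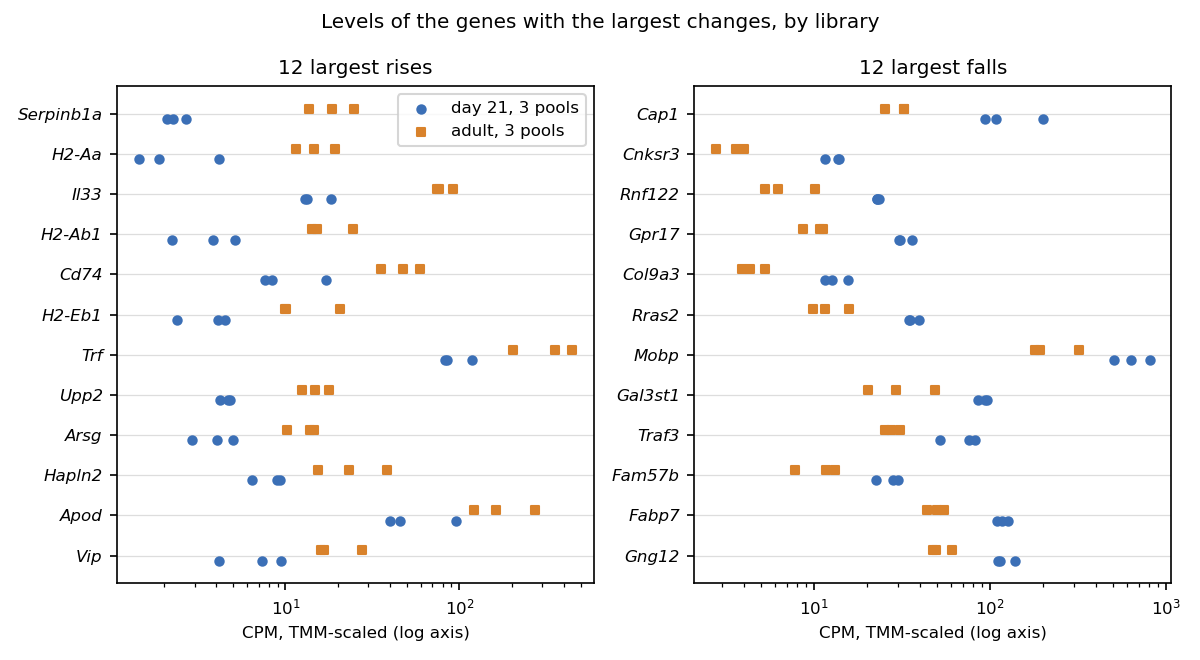
TMM-scaled CPM on a log axis for the 12 called genes with the largest rise and the 12 with the largest fall, among those whose mean log2 CPM reached 3 and whose groups did not overlap, leaving out predicted genes and genes named after a clone (Gm and Rik symbols); each circle is a day 21 pool and each square an adult pool, 3 of each. Serpinb1a ran from 2.07 to 2.69 CPM in the young and 13.6 to 24.7 CPM in the adult pools, and Cap1 from 93.0 to 199 CPM and 25.1 to 32.5 CPM.

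The steepest of the abundant rises was that of Serpinb1a, an inhibitor of serine proteases (chromosome 13, 32842092 to 32851185, GRCm38, the assembly also called mm10). It stood at 2.07, 2.69 and 2.26 CPM in young pools 1 to 3 and at 13.6, 18.6 and 24.7 CPM in adult pools 1 to 3 (log2 3.01, SE 0.25, adjusted p = 0.00115). Il33, which encodes a nuclear cytokine released as an alarm signal (chromosome 19, 29925114 to 29960718), stood at 13.4, 18.4 and 12.96 CPM in the young and 74.5, 92.3 and 76.2 CPM in the adults (log2 2.44, SE 0.16, adjusted p = 0.000492). The groups of both genes lay far apart, and both calls remained with each library left out in turn. In the earlier pools the same genes differed by log2 3.12 (SE 0.29) and 3.07 (SE 0.17).

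Genes that present antigen to T cells were the most often called group among those higher in adults. Of 25 such genes listed, 21 passed the low-count filter; 9 of these 21 rose (42.9%, against 1.35% of all genes), 0 fell, and the list's median was log2 0.75 against 0.01 for all genes. Class II molecules, which display peptides taken up from outside the cell, led the list. H2-Aa, the class II alpha chain, stood at 1.44, 1.88 and 4.14 CPM in the young and 14.7, 11.5 and 19.2 CPM in the adults (log2 2.60, SE 0.37, adjusted p = 0.00891). Its partner beta chain H2-Ab1 stood at 3.83, 2.22 and 5.10 CPM against 15.2, 14.3 and 24.3 CPM (log2 2.27, SE 0.32, adjusted p = 0.00809). Cd74, the invariant chain that escorts class II molecules, stood at 7.58, 8.35 and 17.1 CPM against 47.6, 35.3 and 59.0 CPM (log2 2.102, SE 0.30). In each of these genes the lowest adult library exceeded the highest young one, and young pool 3 was the highest of the young. H2-Eb1, a further class II beta chain, rose by log2 1.88 (SE 0.34). Ciita, the class II coactivator gene, was at 0.313 to 1.05 CPM and was not called (log2 0.56, adjusted p = 0.671).

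Class I genes, which display peptides made inside the cell, moved less evenly. Tap2, a subunit of the peptide transporter, stood at 2.25, 1.62 and 2.72 CPM in the young and 6.30, 7.57 and 10.4 CPM in the adults (log2 1.88, SE 0.29, adjusted p = 0.0117). H2-T23, a nonclassical class I gene, rose by log2 1.43 (SE 0.24) and the classical H2-K1 by 1.37 (SE 0.30). Psmb8, a catalytic subunit of the immunoproteasome, rose by 1.27 (SE 0.28), and Psme2, a proteasome activator subunit, by 0.47 (SE 0.09). H2-D1 (log2 0.61, adjusted p = 0.151) and B2m, the light chain shared by class I molecules (0.75, adjusted p = 0.12), did not pass, and Psmb10 and Psme1 were near 0 (-0.04 and -0.07). Reads of near-identical histocompatibility genes can be shared between copies, so the values of single H2 genes are uncertain.

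Interferon-stimulated genes leaned the same way with few calls. Of 33 tested, 2 rose and 0 fell (6.1%, against 1.35% of all genes higher), while 32 had a positive difference and the median was log2 0.80. Ifit3, induced by interferon in antiviral defence, stood at 3.83, 5.09 and 6.52 CPM in the young and 9.20, 13.3 and 13.01 CPM in the adults (log2 1.20, SE 0.24, adjusted p = 0.0334). Lgals3bp, a secreted glycoprotein gene, rose by log2 0.81 (SE 0.17). Without young pool 3, 11 interferon-stimulated and 10 antigen presentation genes rose, with medians of 0.98 and 1.22. In that fit 3.99% of all genes rose. Of the 11 calls in both lists, 1 remained without young pool 2, 3 without adult pool 2, 4 without adult pool 3, 5 without young pool 1 and 8 without adult pool 1. H2-Ab1 was called in all of these fits, and the log2 differences of the 11 genes stayed between 0.43 and 3.17. In the earlier pools the medians of these lists were 0.62 (antigen presentation) and 0.16 (interferon).

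Markers of other cells that could hold these transcripts moved as follows. Lyz2, a gene of macrophages and other myeloid cells, stood at 4.07 to 11.1 CPM in the young and 13.9 to 24.5 CPM in the adults and was not called (log2 1.35, adjusted p = 0.0755). The 18 fibroblast and meningeal genes summed to 414 to 1821 CPM in the young and 1768 to 4649 CPM in the adults, with none called, 14 of 18 positive and a median of log2 0.67. Most of that sum was Ptgds, the prostaglandin D synthase gene, at 261, 675 and 1056 CPM in the young and 1385, 1824 and 3935 CPM in the adults (log2 1.84, adjusted p = 0.0692). Of the 18, 10 rose without young pool 3. Complement genes had no call among 16, with a median of log2 0.70, and 6 rose without young pool 3. The part of these cells in the rise of antigen presentation genes was not tested.

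Promoters are shown for 2 class II genes and for an interferon-stimulated and a class I gene that rose, as 150 bases ahead of the annotated start, 5′ to 3′ on the gene's strand (RefSeq, GRCm38.p6). Capitals mark the CCAAT box (CCAAT, either strand) in the first pair and the core of the interferon-stimulated response element (GAAANNGAAA, either strand) in the second pair. Class II promoters are known to carry an inverted CCAAT element, the Y box, bound by NF-Y.
H2-Aa: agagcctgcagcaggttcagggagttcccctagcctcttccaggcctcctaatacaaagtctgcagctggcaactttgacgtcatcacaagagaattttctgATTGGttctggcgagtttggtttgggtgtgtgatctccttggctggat
H2-Eb1: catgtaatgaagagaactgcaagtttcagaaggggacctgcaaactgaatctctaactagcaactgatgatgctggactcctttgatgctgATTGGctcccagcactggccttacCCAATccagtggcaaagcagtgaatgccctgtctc
Ifit3: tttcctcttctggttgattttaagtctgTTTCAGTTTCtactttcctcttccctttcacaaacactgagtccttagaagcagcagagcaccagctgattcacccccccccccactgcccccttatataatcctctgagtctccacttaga
H2-T23: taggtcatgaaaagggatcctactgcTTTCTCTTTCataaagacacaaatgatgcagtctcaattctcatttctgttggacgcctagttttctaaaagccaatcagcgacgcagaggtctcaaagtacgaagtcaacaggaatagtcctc
These windows are chr17:34287824-34287973 on the minus strand, chr17:34305717-34305866 on the plus strand, chr19:34583379-34583528 on the plus strand and chr17:36032702-36032851 on the minus strand. Within 250 bases ahead of the start, 11 of 16 antigen presentation genes with a RefSeq promoter held a CCAAT box (68.8%). That share was 37.5% of all 27025 genes with a promoter and 40.0% of the genes tested here. The 16 were tested members, called or not, and 4 of the 6 called ones held the box. It was also in 11 of 16 clock genes and 17 of 17 cholesterol synthesis genes, so the share was not particular to antigen presentation genes. The response element core was in 11 of 24 interferon-stimulated genes (45.8%) and 2 of 16 antigen presentation genes, against 3.46% of all. Among the called genes with a promoter it was in 1 of 2 interferon-stimulated and 1 of 6 antigen presentation genes. These are Ifit3 and H2-T23, the promoters printed above. TTCNNNGAA, the gamma-activated site, was in 5 of the 24 (20.8%) and 1 of the 16 (6.25%), against 8.13%. A match is a description of the letters in the window and not a site of binding.

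In the oligodendrocyte lineage, the calls in the precursor and newly formed cell lists were all falls, and the myelin list had calls both ways. Of 14 genes of newly formed oligodendrocytes, 6 fell and 0 rose (42.9%, against 1.74% of all genes lower), with a median of log2 -0.60. Of 14 precursor genes, 4 fell and 0 rose, with a median of -0.24. Of 28 myelin genes, 8 rose and 1 fell, where 1.35% of all genes rose and 1.74% fell, with a median of 0.35. Without young pool 3 the newly formed list again had 6 down, the precursor list 4 down and the myelin list 9 up and 2 down.

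The noncoding RNA 9630013A20Rik, annotated as an antisense transcript on chromosome 14 from 84458639 to 84476424, fell the most among these. It stood at 41.2, 54.6 and 22.8 CPM in the young and 2.29, 1.59 and 5.72 CPM in the adults (log2 -3.64, SE 0.47, adjusted p = 0.00633). Cnksr3, a scaffold gene of kinase signalling, stood at 13.9, 11.5 and 13.7 CPM against 3.98, 2.77 and 3.60 CPM (log2 -1.92, SE 0.21, adjusted p = 0.00365). The groups lay well apart in both. Rras2, a Ras-related GTPase, stood at 34.9, 34.6 and 39.5 CPM against 9.85, 11.6 and 15.9 CPM (log2 -1.55, SE 0.18). Kif19a, a kinesin, changed by log2 -1.67 (SE 0.34), Bcas1, expressed in premyelinating cells, by -0.96 (SE 0.22) and Fyn, a kinase that promotes myelination, by -0.62 (SE 0.09). Enpp6 had the same direction without a call (-1.08, adjusted p = 0.104).

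Among precursor genes Gpr17, a receptor of precursors committed to differentiate, stood at 30.7, 30.3 and 35.9 CPM in the young and 8.60, 11.2 and 10.8 CPM in the adults (log2 -1.66, SE 0.15, adjusted p = 0.00142). Olig1 and Olig2, transcription factors of the whole lineage, fell by 0.62 (SE 0.13) and 0.61 (SE 0.14) on the log2 scale, and Neu4, a sialidase, by 0.74 (SE 0.16). Pdgfra, the growth factor receptor that defines precursors, stood at 8.35 to 12.99 CPM against 7.74 to 12.4 CPM and overlapped (log2 -0.14, adjusted p = 0.805), as did Cspg4 within its error (0.23, adjusted p = 0.675).

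Myelin genes did not move together. Trf, the iron carrier transferrin, stood at 84.5, 82.6 and 117 CPM in the young and 204, 355 and 446 CPM in the adults (log2 1.82, SE 0.25, adjusted p = 0.00757). Hapln2, a link protein at nodes of Ranvier, stood at 8.88, 6.39 and 9.30 CPM against 15.47, 23.3 and 38.5 CPM (log2 1.66, SE 0.30), and Apod, a lipid-binding lipocalin, at 40.1, 45.5 and 95.6 CPM against 121, 162 and 272 CPM (log2 1.62, SE 0.35). Adult pool 1, the GFP-positive pool, was the lowest adult library in each. Car2, a carbonic anhydrase, rose by 1.00 (SE 0.15), Anln by 1.26 (SE 0.28), Ndrg1 by 0.84 (SE 0.18), Qdpr, a reductase of the tetrahydrobiopterin cycle, by 0.76 (SE 0.13) and the protease gene Klk6 by 2.72 (SE 0.61). In contrast Mobp, a protein of compact myelin, stood at 632, 503 and 806 CPM in the young and 179, 191 and 318 CPM in the adults (log2 -1.50, SE 0.23, adjusted p = 0.0119). Gal3st1, which makes the myelin lipid sulfatide and is on no list here, stood at 96.0, 85.0 and 93.6 CPM against 20.2, 29.0 and 48.3 CPM (log2 -1.49, SE 0.25).

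Mbp, a main structural protein of compact myelin, overlapped between the ages. It stood at 2040, 1800 and 2474 CPM in the young and 1074, 1381 and 2067 CPM in the adults (log2 -0.48, adjusted p = 0.242). Cnp was lower in all 3 adult libraries, at the edge of the threshold (-0.74, adjusted p = 0.0508). Summed over 28 genes, myelin transcripts ran from 6092 to 8773 CPM in the young and from 4890 to 9074 CPM in the adults. Of the 11 falls in these 3 lists, 4 remained without adult pool 2, 5 without young pool 2, 6 without young pool 1, 6 without adult pool 1 and 8 without adult pool 3; 9630013A20Rik, Cnksr3, Gpr17 and Rras2 were called in all. Of the 8 rises, 0 remained without young pool 2 or adult pool 2 and 3 without young pool 1 or adult pool 3, with log2 differences from 0.57 to 3.20. In the earlier pools Trf differed by log2 1.17 (SE 0.19), Mobp by -1.58 (SE 0.14), Gpr17 by -1.48 (SE 0.22) and 9630013A20Rik by -3.91 (SE 0.23).

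**Figure D2:**
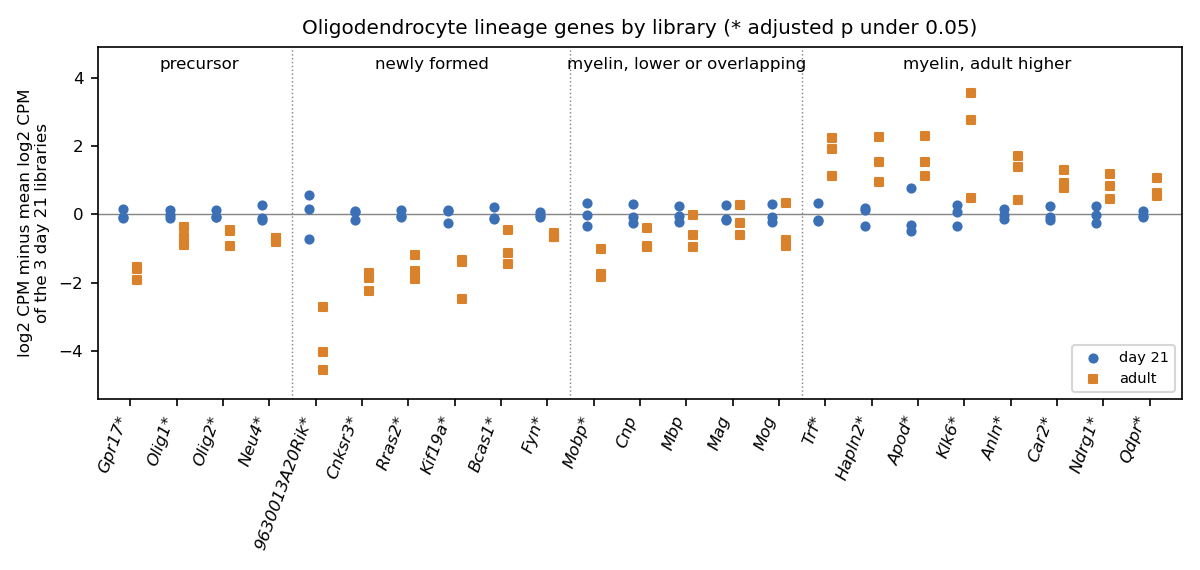
Log2 CPM of 23 oligodendrocyte lineage genes in each library, minus the mean of the 3 day 21 libraries (circles, day 21; squares, adult; an asterisk marks adjusted p under 0.05). Precursor and newly formed genes such as Gpr17 and Cnksr3 lie below the line in all 3 adult pools, Mbp overlaps, and Trf, Hapln2 and Car2 lie above it.

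Other glia changed in a few genes. Of 23 astrocyte genes, 4 rose and 0 fell (1.35% of all genes rose), with 22 positive and a median of log2 0.32; 9 rose without young pool 3. Beside Il33 they were Agxt2l1, an enzyme of phospholipid breakdown (log2 1.27, SE 0.25), Mlc1, a membrane protein of astrocyte endfeet (0.70, SE 0.15), and Clu, the secreted chaperone clusterin (0.52, SE 0.09). Of 22 microglia genes tested, 3 rose and 0 fell: Ctss, a lysosomal protease (log2 1.15, SE 0.22), Olfml3 (1.19, SE 0.26) and Apoe, the lipid carrier, which astrocytes also make (0.88, SE 0.18). With young pool 3 left out, 6 of the 22 rose. The defining microglial receptors overlapped, with Cx3cr1 at 7.86, 11.1 and 9.18 CPM in the young and 7.63, 9.93 and 8.75 CPM in the adults (log2 -0.10, adjusted p = 0.842) and P2ry12 at 8.46, 9.05 and 11.6 CPM against 5.95, 7.67 and 9.17 CPM (-0.35, adjusted p = 0.421). Fabp7, a fatty acid-binding protein of radial glia and young astrocytes, stood at 110, 117 and 126 CPM against 49.96, 43.9 and 54.6 CPM and fell by 1.25 on the log2 scale (SE 0.11, adjusted p = 0.00126). Of the 9 calls made up by these genes, Il33 and Serpinb1a, 3 remained without young pool 2 or adult pool 2, namely Il33, Serpinb1a and Fabp7, 4 without adult pool 3, 5 without young pool 1 and 8 without adult pool 1. Endothelial, mural, ependymal, tanycyte and choroid plexus lists had no call. When young pool 3 was left out, 3 of 12 mural genes, 2 of 12 tanycyte genes and 1 of 17 endothelial genes rose, the mural median going from -0.51 to 0.12 and the endothelial from -0.09 to 0.62. In the same fit the median of 20 basement membrane genes went from -0.23 to 0.32, with 0 called before and 1 up after. Also, the 6 blood cell genes tested were all lower in the adults without a call (median -1.30), with 2 of 8 down without young pool 3.

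A part of the genes of immature neurons fell. Of 24 tested, 6 fell and 0 rose (1.74% of all genes fell), with 19 negative and a median of log2 -0.34; 9 fell without young pool 3. Marcksl1, an actin-binding protein of growing processes, stood at 858, 815 and 690 CPM in the young and 388, 340 and 403 CPM in the adults (log2 -1.06, SE 0.11, adjusted p = 0.00309). D0H4S114, a gene now named Nrep, stood at 137, 163 and 158 CPM against 71.6, 74.6 and 89.5 CPM (log2 -0.95, SE 0.11, adjusted p = 0.00498). Neither gene's groups came near each other. Stmn2, a regulator of microtubules in growth cones, fell by 0.54 (SE 0.09), Tmsb10, an actin-sequestering peptide, by 0.63 (SE 0.13), Dpysl3, which acts in axon growth, by 0.53 (SE 0.09) and Tubb2a, a tubulin, by 0.44 (SE 0.08) on the log2 scale. Of 31 cell cycle genes 19 were negative and 12 positive, with a median of log2 -0.32. Called among them were 2 falls, Ccnb1 (log2 -2.38, SE 0.53) and Ube2c (-1.94, SE 0.45), both of mitosis and both under 5 CPM. The replication genes Mcm7 and Pcna differed by -0.03 and 0.25 without a call. Of these 8 falls, 2 remained without young pool 2 or adult pool 2, Marcksl1 and D0H4S114, 4 without young pool 1 or adult pool 3, 5 without adult pool 1 and 7 without young pool 3. Their log2 differences stayed between -2.73 and -0.42. Abundant members such as Nnat (log2 0.19) and Stmn1 (0.10) were not called. The 30 axon guidance genes had no call (median 0.17), and 2 rose without young pool 3.

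Chromatin and imprinted genes gave a small number of falls. Of 25 methylation and chromatin reader genes, 2 fell and 0 rose (median log2 -0.12), where 1.74% of all genes fell, and the same number fell without young pool 3. Dnmt3a, which lays down new DNA methylation, stood at 109, 119 and 108 CPM in the young and 57.0, 63.0 and 80.9 CPM in the adults (log2 -0.74, SE 0.13, adjusted p = 0.0202). Tet1, which oxidises methylated cytosine, stood at 22.1, 26.6 and 23.9 CPM against 11.8, 12.4 and 14.7 CPM (-0.90, SE 0.14, adjusted p = 0.014). Of 38 imprinted genes 2 fell and 0 rose (median 0.03), and 2 fell and 1 rose without young pool 3. Mkrn3, a maternally imprinted gene whose loss in people brings early puberty, stood at 5.86, 9.36 and 9.75 CPM against 2.58, 2.15 and 4.35 CPM (log2 -1.47, SE 0.32, adjusted p = 0.0392), and differed by -2.60 (SE 0.43) in the earlier pools. Ndn, the neuronal gene necdin, fell by 0.58 on the log2 scale (SE 0.12). Of 19 glucocorticoid-responsive genes 2 fell, Cdkn1a, a brake on cell division (-0.75, SE 0.13), and Ddit4, an inhibitor of growth signalling (-0.73, SE 0.11), while the list's median was -0.07 and 3 fell without young pool 3. None of these 6 falls (Dnmt3a, Tet1, Mkrn3, Ndn, Cdkn1a and Ddit4) remained without young pool 2 or without adult pool 2. Without adult pool 1, 3 of the 6 remained. Over the fits that leave out a library, their adjusted p reached 0.192 and their log2 differences ran from -1.83 to -0.49.

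The genes of the GnRH and kisspeptin system were measured in a fraction from which tagged GnRH ribosomes had been drawn only in adult pool 1. Of 17 tested, 1 rose and 0 fell, and all 17 had a positive difference, with a median of log2 0.46, where 1.35% of all genes rose. The list had 3 rises and a median of 0.30 without young pool 3. Kiss1, which encodes kisspeptin (chromosome 1, 133321875 to 133329901), stood at 7.09, 5.22 and 2.48 CPM in the young and 16.4, 10.05 and 12.6 CPM in the adults. The groups did not overlap, and the difference of log2 1.40 (SE 0.34) missed the threshold at an adjusted p of 0.0578; with a library left out the adjusted p ran from 0.0243 (without young pool 3, log2 1.08) to 0.184 (without young pool 2, log2 1.45), and it was 0.00101 by DESeq2 and 0.0427 by limma voom. In the earlier pools the difference was 2.76 (SE 0.41), and the difference between the differences was -1.37, not called. Gnrh1 itself (chromosome 14, 67745181 to 67749439) stood at 26.1, 27.5 and 17.2 CPM in the young and 26.9, 27.7 and 24.5 CPM in the adults, overlapping (log2 0.16, SE 0.18, adjusted p = 0.684), against 1.25 (SE 0.19) in the earlier pools. All earlier pools were GnRH CRE x Floxed L10a-GFP, as only adult pool 1 was among the new pools. Tagged GnRH ribosomes had thus been drawn from every earlier library, and the new and earlier differences come from unlike fractions. Pdyn, the dynorphin precursor, was the gene that rose, from 6.74, 8.40 and 5.71 CPM to 14.4, 12.4 and 11.4 CPM (log2 0.87, SE 0.20, adjusted p = 0.0461). Tac1, the precursor of substance P, had the direction without a call (0.72, adjusted p = 0.081), and the kisspeptin receptor gene Kiss1r stood at 0.07 (adjusted p = 0.92).

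Receptors of sex steroids and prolactin had no call among 15 genes (median log2 0.24), and 2 rose without young pool 3. Esr1, the oestrogen receptor gene, stood at 13.5, 14.3 and 7.22 CPM in the young and 17.4, 14.4 and 9.38 CPM in the adults (log2 0.23, adjusted p = 0.723). Pgr, the progesterone receptor gene, stood at 32.3, 29.4 and 32.3 CPM against 28.5, 33.5 and 35.2 CPM (0.05, adjusted p = 0.87). Both overlapped.

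Other secreted peptides rose in 3 of 30 cases, against 1.35% of all genes, and without young pool 3 in 4 cases, with 1 fall. Vip, a peptide of suprachiasmatic and other neurons, stood at 7.30, 9.44 and 4.14 CPM in the young and 16.0, 27.4 and 16.5 CPM in the adults (log2 1.52, SE 0.31, adjusted p = 0.0335). Scg5, a chaperone of the prohormone convertase that matures peptides, stood at 228, 222 and 233 CPM against 358, 366 and 390 CPM (0.71, SE 0.08, adjusted p = 0.00467). Penk, the enkephalin precursor, stood at 209, 290 and 212 CPM against 363, 360 and 361 CPM (0.61, SE 0.13). No adult value of these genes reached down to a young one. The 12 genes of the suprachiasmatic nucleus, which borders the punch, were all positive (median 0.76), with only Vip called; young pool 3 was the lowest of the 6 libraries for Vip, Avp, Nms and Six6, and without it the median was 0.44. Of the 13 striatum genes only Penk was called (median 0.34). Scg5 was called with each library left out, Vip, Penk and Pdyn were not, and 1 of the 4 calls remained without adult pool 1, 2 or 3.

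Genes of neuronal signalling had few calls per list, where 1.35% of all genes rose and 1.74% fell. Without young pool 3 these shares of all genes were 3.99% and 4.18%. Of 14 GABA-A receptor subunits, Gabra2 rose, from 24.5, 27.7 and 29.2 CPM to 44.4, 47.9 and 44.0 CPM (log2 0.74, SE 0.11, adjusted p = 0.0117), and 13 of the 14 were positive (median 0.29). Of 9 AMPA and kainate receptor subunits, Gria1 rose, from 91.1, 89.1 and 84.9 CPM to 124, 140 and 126 CPM (0.56, SE 0.09, adjusted p = 0.0142). Both had tight groups at each age. The 7 NMDA receptor subunits had no call (median 0.10), nor had 35 potassium channel genes (median 0.11) or the 16 genes of transmitter identity and chloride transport (median 0.17). Of 26 sodium, calcium and HCN channel genes, 1 rose and 1 fell (median 0.08). Hcn2, a pacemaker channel gene, rose by 0.53 (SE 0.10). The calcium channel gene Cacna1b fell by 1.63 on the log2 scale (SE 0.22), but stood at 0.63 (SE 0.35) in the earlier pools. Of 28 synaptic vesicle genes, 2 rose and 0 fell (median 0.05). They were Syt4, a vesicle protein of peptide release (0.55, SE 0.10), and Synpr, a synaptic vesicle protein (0.51, SE 0.11). Snap25 and Vamp2 of the fusion machinery differed by 0.06 and -0.15 without a call. Of 20 metabolic and growth hormone receptor genes, 1 fell and 0 rose (median 0.11). It was Thra, a thyroid hormone receptor gene, at 360, 404 and 435 CPM in the young and 285, 270 and 263 CPM in the adults. Thra differed by log2 -0.55 (SE 0.09, adjusted p = 0.0175), but by 0.12 (SE 0.13) in the earlier pools. In the fit that leaves out young pool 3, 3 GABA-A subunits, 2 AMPA and kainate subunits, 4 of 28 synaptic vesicle genes and 1 of 35 potassium channel genes rose. None of the calls of Gabra2, Gria1, Hcn2, Syt4, Synpr and Thra remained without young pool 2 or without adult pool 2. Their adjusted p with a library left out reached 0.225. The call of Cacna1b was lost only without adult pool 2 (adjusted p = 0.0552). Perineuronal net genes had 1 call among 16, Hapln2 (median -0.18), and 15 genes of the nodes of Ranvier had none (median 0.04).

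Oxidative phosphorylation is encoded here by 77 tested nuclear genes. Of these 5 fell and 0 rose, against 1.74% of all genes lower, while 68 were negative and the median was log2 -0.25. Without young pool 3, 40 fell, where 4.18% of all genes fell. That fit sets wild type young pools against adult pools with Cre, so age and Cre cannot be told apart in it. Summed over the 79 listed genes, in CPM of the library total, young pools 1 to 3 held 34390, 34720 and 30790 CPM. Adult pools 1 to 3 held 29340, 29320 and 30400 CPM. Cox6a2, a cytochrome oxidase subunit, stood at 14.4, 19.9 and 13.1 CPM in the young and 6.80, 6.93 and 7.34 CPM in the adults (log2 -1.17, SE 0.19, adjusted p = 0.0157). Atp5g1, a subunit of the ATP synthase rotor, stood at 840, 887 and 772 CPM against 539, 525 and 506 CPM (-0.67, SE 0.08, adjusted p = 0.00582). Adult values were nearly alike in both. Uqcr11 changed by -0.55 (SE 0.11). In the earlier pools the list's median was -0.08, and of the 5 calls 0 remained without adult pool 2 and 1 without young pool 2 or adult pool 3. None of the 82 cytosolic ribosomal protein genes was called (median 0.05), and Rpl10a, whose protein bears the GFP tag in the ribosome line, stood at 158, 161 and 122 CPM against 112, 111 and 117 CPM (-0.37, adjusted p = 0.107). Cholesterol synthesis (25 genes, median -0.01), immediate early (24 genes, -0.08) and heat shock genes (21 genes, 0.08) had no call. Of 18 clock genes Bhlhe41, a repressor in the clock, rose (0.94, SE 0.19, adjusted p = 0.0323) with 17 positive (median 0.18), a call lost without young pool 1, young pool 2, adult pool 2 or adult pool 3 (adjusted p up to 0.15). The E-box CACGTG was in 5 of 16 clock gene promoters (31.2%) against 6.86% of all, and TTATGTAA, the D-box, in 1 of 16 against 0.977%. The CCAAT box was in 11 of the 16 and in 17 of 17 promoters of cholesterol synthesis genes, against 37.5% of all.

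**Figure D3:**
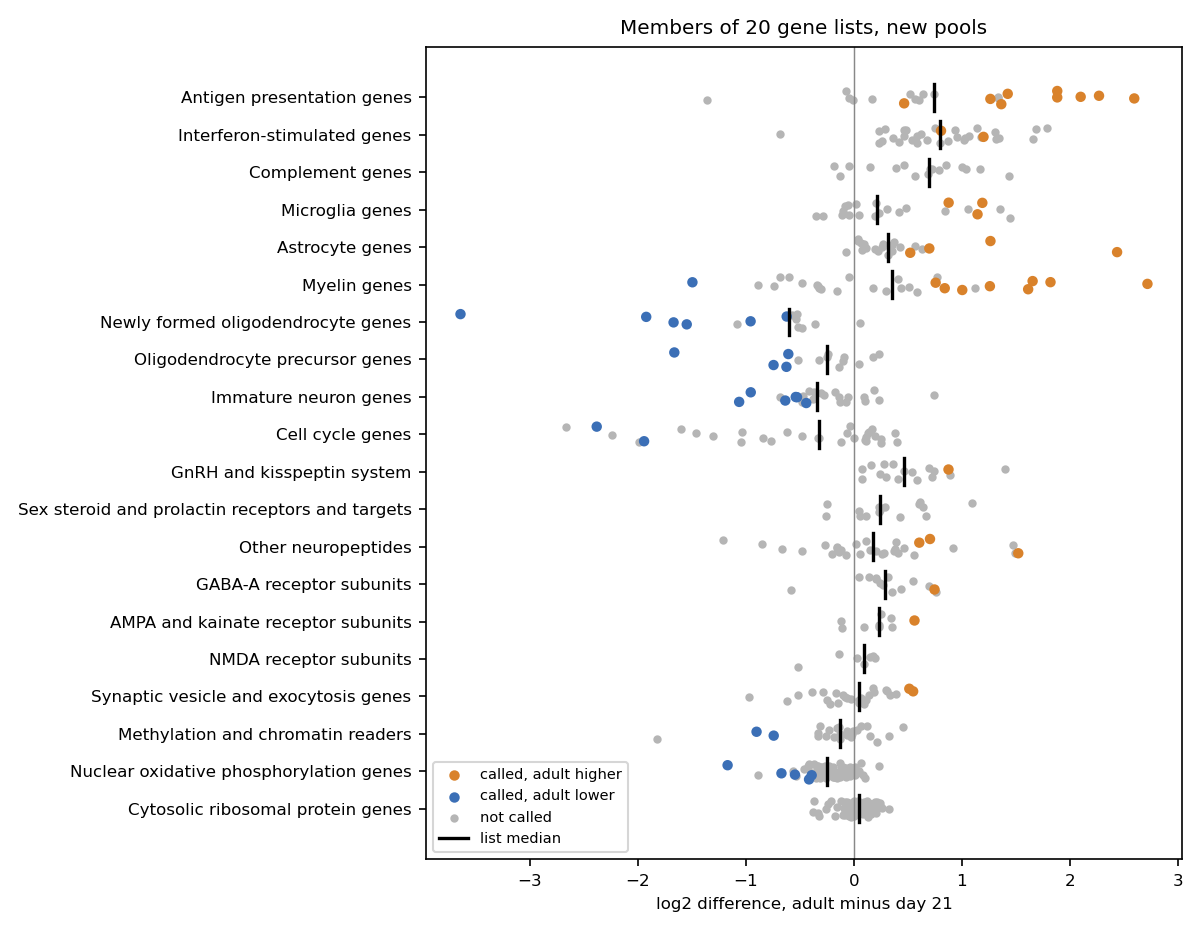
Log2 differences, adult minus day 21, of the members of 20 gene lists (orange, called and higher in adults; blue, called and lower; grey, not called; black bar, median). Antigen presentation genes reach 2.60 with 9 called, newly formed oligodendrocyte genes reach -3.64 with 6 called, and ribosomal protein genes lie close to 0.

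Further genes with large changes belonged to no list. Upp2, a uridine phosphorylase, stood at 4.70, 4.77 and 4.20 CPM in the young and 14.7, 17.8 and 12.4 CPM in the adults (log2 1.72, SE 0.19, adjusted p = 0.00411), and Arsg, a lysosomal sulfatase, at 5.02, 2.92 and 4.05 CPM against 10.2, 13.9 and 14.6 CPM (1.69, SE 0.24). Rnf122, a ubiquitin ligase gene, stood at 23.5, 22.9 and 22.8 CPM against 5.23, 6.21 and 10.1 CPM (log2 -1.68, SE 0.23, adjusted p = 0.00703). Col9a3, a collagen gene, fell by 1.56 (SE 0.20), Traf3, an adaptor of immune receptors, by 1.34 (SE 0.17), Fam57b by 1.31 (SE 0.20) and Gng12, a G protein subunit, by 1.21 (SE 0.13) on the log2 scale. The groups of each of these genes lay apart, and each had the same sign in the earlier pools, from log2 -1.41 for Rnf122 (SE 0.18) to 0.86 for Arsg (SE 0.21). Upp2, Traf3 and Gng12 were called with each library left out, while Arsg and Fam57b were not without young pool 2 or adult pool 2 and Rnf122 and Col9a3 not without adult pool 2 (adjusted p up to 0.0714).

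The earlier pools, which share no animals or libraries with the 6, allowed the direction of each call to be read again. Of the 210 higher genes 209 were tested there and 201 had the same sign (96.2%), and of the 271 lower genes 269 were tested and 251 had it (93.3%), where 52% of all genes tested in both were higher in the earlier adults. Median log2 differences were 0.71 in the new and 0.50 in the earlier pools for the higher genes, and -0.66 and -0.47 for the lower. With 2 pools against 2, edgeR called 11 of 15621 genes in the earlier pools (0.0704%), 5 higher (0.0320%) and 6 lower (0.0384%) in adults. Of these, 3 higher and 5 lower genes were called in the same direction in the new pools, among them Il33, Serpinb1a, Car2, Marcksl1 and Mobp. That count was 996 without earlier young pool 2, 90 without earlier young pool 1 and 0 without either earlier adult pool, with 644 and 1152 genes at an unadjusted p under 0.05. The age difference itself differed between new and earlier pools for 1 of 16206 genes (0.00617%), Gm5779, with 588 genes at an unadjusted p under 0.05.

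**Figure D4:**
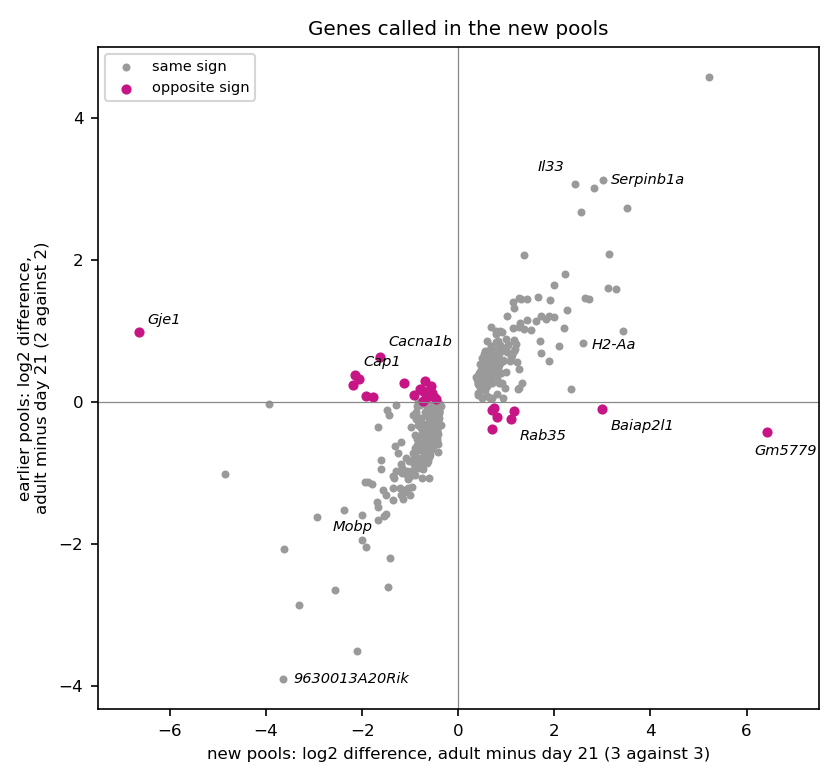
Log2 differences, adult minus day 21, in the earlier pools (vertical, 2 against 2) against those in the new pools (horizontal, 3 against 3) for genes called in the new pools; grey, same sign, and magenta, the 26 genes of opposite sign. Il33 and Serpinb1a lie near the diagonal, and Gm5779, Gje1 and Cap1 lie off it.

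Opposite signs were seen for 26 called genes, 8 higher and 18 lower in the new adults, and some of these followed genotype. Values in this paragraph are CPM of the library total, so that all 20 libraries can be set side by side. Gm5779, a transcribed processed pseudogene on chromosome 10 from 75344472 to 75353033, had 4, 1 and 7 counts in the young new supernatants and 221, 623 and 412 in the adult ones (log2 6.43, SE 0.47, adjusted p = 0.000516). It stood at 0.0255 to 0.212 CPM in the former and at 7.96 to 12.6 CPM in the latter, while in the earlier pools, which carried Cre at both ages, it stood at 5.52 to 9.13 CPM in the young and 4.83 to 5.79 CPM in the adults over both sequencing runs. It was thus low in the 3 pools without Cre, whose pull-downs held 0 to 1.39 CPM, and higher in every library that carried Cre. Reads of a processed pseudogene can also come from its parent gene, so its value is uncertain. Gje1, a connexin-like gene, was the called gene whose groups overlapped: it stood at 87.0 and 30.7 CPM in the wild type pools and at 0.273 CPM in young pool 3, 0.366 to 0.433 CPM in the adult pools and 0.173 to 0.690 CPM in the earlier pools.

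Cap1, which recycles actin monomers (chromosome 4, 122859047 to 122886056), stood at 90.3, 105 and 200 CPM in the young and 32.5, 33.3 and 25.6 CPM in the adult new pools, but at 70.8 to 116 CPM in the earlier young and 108 to 136 CPM in the earlier adult pools. Its log2 difference was -2.15 (SE 0.26, adjusted p = 0.00498) in the new and 0.38 (SE 0.16) in the earlier pools. Rab35, a GTPase of endosomes, went the other way, with 1.10 (SE 0.14, adjusted p = 0.00633) against -0.25 (SE 0.15). Dcun1d4 (0.81 against -0.22) and the calcium channel gene Cacna1b (-1.63 against 0.63) also differed in sign. Of these only Gm5779 passed the test of the difference; Cap1 had an adjusted p of 0.154 and Rab35 of 0.388. Gm5779, Cap1 and Rab35 were called as age differences with each library left out, so a call that was stable across these 6 libraries did not always have its sign in the earlier pools.

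A further pair of transcripts, not called, stood apart in the pools with the floxed allele, Gt(ROSA)26Sor in all of them and Fn3krp in the new pools only. Gt(ROSA)26Sor, the noncoding transcript of the Rosa26 locus, stood at 39.9 and 40.5 CPM in the wild type and 35.5 and 39.2 CPM in the GnRH CRE only supernatants. It stood at 10.2 CPM in young pool 3, 21.8 CPM in adult pool 1 and 15.8 to 27.1 CPM in the earlier pools, all of which carried the floxed allele. The labels do not say where that allele lies. Fn3krp, a repair enzyme of glycated proteins, stood at 34.3 CPM in young pool 3 and 29.4 CPM in adult pool 1 and at 0.713 to 2.69 CPM in the other 4 new supernatants, but at 0.215 to 1.61 CPM in the earlier pools. Without young pool 3 and adult pool 1 together, which leaves wild type against GnRH CRE only, 1332 genes were called and 435 of the 481 remained.

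**Figure D5:**
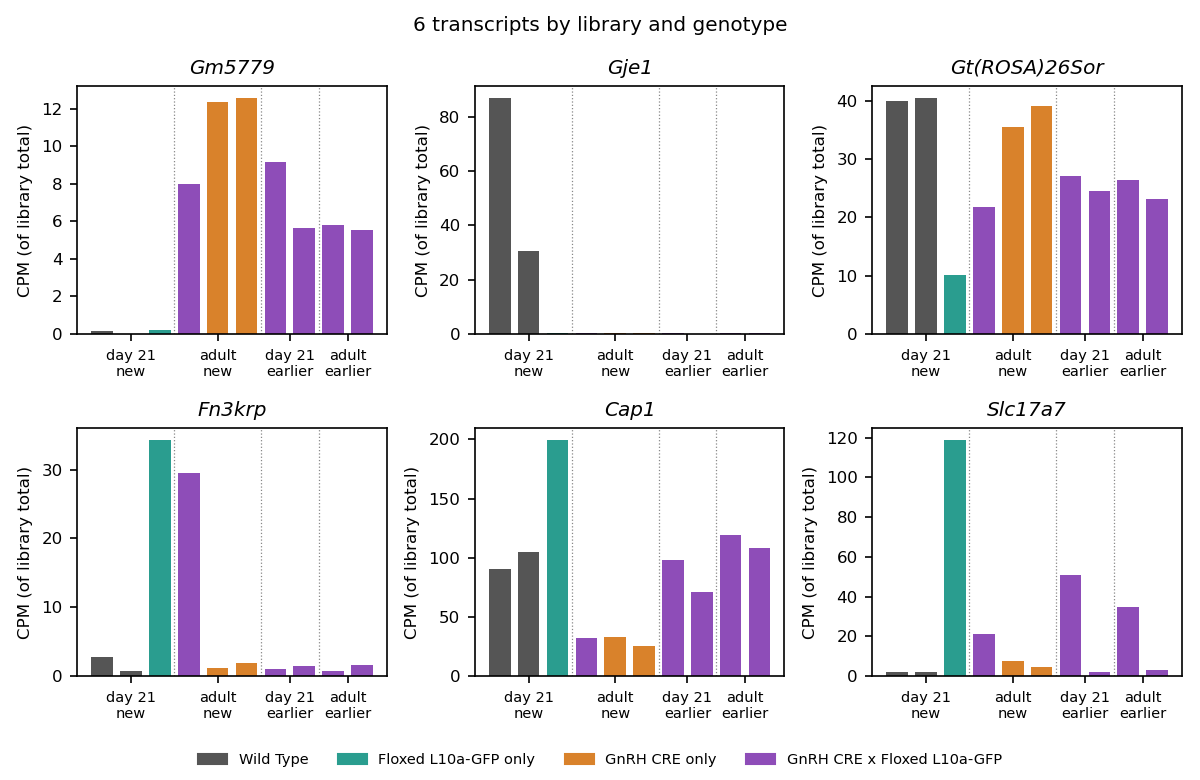
CPM of the library total for 6 transcripts in the 6 new and the 4 earlier supernatants (second sequencing run), 1 bar per library, coloured by genotype. Gm5779 is low in the 3 pools without Cre, Gje1 is high in the 2 wild type pools, Gt(ROSA)26Sor is lower where the floxed allele is carried, and Slc17a7 is highest in young pool 3.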

How the data were processed

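Raw read counts per gene symbol, as deposited, covered 19269 genes in 20 libraries. TopHat2 2.0.13, Bowtie2 2.2.1 and HTSeq 0.6.1 and the build mm10 are named in the submitters' processing notes, with no role stated. For annotation and strand the setting was not given in the sources used, so reads of overlapping and antisense genes cannot be told apart. Per the labels' protocols polyA RNA was amplified with a SMARTer v4 kit. Counts of the 6 libraries were tested with edgeR 4.0.16 in R 4.3.3 (quasi-likelihood, TMM scaling, filterByExpr with a minimum count of 10, Benjamini-Hochberg over 15593 genes, 4 residual degrees of freedom). The earlier pools had a fit of their own, and the difference of differences a fit of 10 libraries. The labels call the pools biological replicates, and p-values measure the pool-to-pool spread. Within each age the pools also differed in genotype, so that spread includes any effect of genotype. On simulated data the fit recovered 57% of genes changed by log2 1 and 85% of those changed by log2 2, with 10 false of 152 calls.

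Named genes were the 12 largest changes each way (called, mean log2 CPM of at least 3, no overlap, no predicted genes), up to 4 called and 2 abundant uncalled members of each list, Gnrh1, Kiss1, Esr1, Pgr and Rpl10a, and the 5 smallest interaction p-values each way; further list members are named with their list, and Gje1, Gt(ROSA)26Sor and Fn3krp, among others, after their values were seen. Members and the 48 lists were chosen with earlier results of these data known. Of the listed genes 17 matched by an older symbol and 6 had no match. A list counts only the members that passed the filter, and a gene can pass through the group where it is high, so list counts are descriptions and no list was tested. Gene coordinates are those of GENCODE M21 on GRCm38, matched for 98.4% of the table. Floors cover counting error only. Some genes that the rule names are not reported here.

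Replicate numbers are shared between the ages but name different animals. Deviations of same-numbered libraries from their group means correlated at 0.0245, 0.0610 and 0.0500, so the numbers were not taken to pair the samples.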

Additional observations from a re-analysis of the deposited data

Results flagged for a closer look

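The age difference of Gm5779 differed between the new and the earlier pools by 6.855 on the log2 scale (adjusted p = 0.00115, edgeR interaction, 10 libraries). It was higher in 3 of 3 adult new pools than in every young new pool and lower by 0.43 on the log2 scale in the earlier pools (log2 -0.43, SE 0.29). Age and Cre cannot be told apart in the new pools. Of 16206 genes it was the only one to pass; DESeq2 called 9 and limma voom 0, with 645 at an unadjusted p under 0.05.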

How the results depend on the processing

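The 481 calls became 1284 by DESeq2, 127 with a log2 change of at least 1, and 42 to 1332 with a library or both floxed-allele pools left out, the last added after seeing the data. With the replicate number as a block 289 genes were called, 236 of them shared with the 481; not every library correlated best with its own number, so a call lost there is not read as a weaker effect. Voom, upper-quartile scaling, no filter, a CPM minimum and a fit of 10 libraries gave 479 to 593. In the earlier pools the 11 calls became 306 by DESeq2, 114 without a filter, 28 in the first sequencing run and 0 to 996 with a library left out. The 1 interaction became 9 by DESeq2, 0 by limma voom (645 at an unadjusted p under 0.05), 2 without a filter and 1 to 9 with a library left out. Of 993 values of the 71 called named genes under other settings, 0 changed sign and 214 lost the call. Acta2, not called at log2 -0.59, was -1.08 without young pool 1, 1.70 without young pool 3 and 1.63 without both floxed-allele pools. With 3 pools a group and a median SE of log2 0.166, changes under log2 1 were often below detection. Where 1 earlier pool was left out, the lone sample was assumed to vary like the other group.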

Other observations

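Among called genes on no list were 5 of the lysosome or late endosome and 5 of the endoplasmic reticulum. They were picked after their values were seen, because they had risen, so their number says nothing of these groups. Ctsz, a lysosomal protease, stood at 18.3, 15.3 and 19.3 CPM in the young and 34.6, 41.4 and 41.4 CPM in the adults (log2 1.15, SE 0.14, adjusted p = 0.00498). Ctsb, another, stood at 225, 234 and 232 CPM against 341, 348 and 348 CPM (0.58, SE 0.08, adjusted p = 0.00651). Ctsd differed by 0.41 (SE 0.08), Psap, the precursor of the saposins, by 0.45 (SE 0.09) and Cd63, a membrane protein of late endosomes, by 0.72 (SE 0.16). Of the endoplasmic reticulum, the chaperone genes Pdia3 and Hsp90b1 differed by 0.49 (SE 0.09) and 0.50 (SE 0.11), and Rpn2, Ddost and Ssr3, of glycosylation and translocation, by 0.48 (SE 0.11), 0.40 (SE 0.09) and 0.49 (SE 0.09). Each had the same sign in the earlier pools, as had 96.2% of all higher genes. Ctsz was called with each library left out, and 1 of the 10 remained without young pool 2 or adult pool 2.

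The nuclear noncoding RNAs Neat1 and Malat1 went in opposite directions. Neat1 stood at 10.1, 12.99 and 15.8 CPM in the young and 26.6, 33.6 and 40.1 CPM in the adults (log2 1.37, SE 0.20, adjusted p = 0.00924; 2.07 in the earlier pools). Malat1 stood at 7469, 6817 and 6265 CPM against 3408, 4466 and 4549 CPM (log2 -0.73, SE 0.12, adjusted p = 0.0162; 0.01 in the earlier pools). Both calls were lost without young pool 2 or adult pool 2 (adjusted p up to 0.0819).

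Called genes were spread over the chromosomes, from 1.88% of tested genes on chromosome 8 to 4.65% on chromosome 2. Median transcript length was 2753 nt for the higher, 2425 nt for the lower and 3089 nt for all genes tested.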
